A study of Mus musculus with 8 samples.

Results

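Genomic imprinting leaves a gene active on the chromosome from one parent and silent on the other. At many imprinted loci the difference is set by a DNA methylation mark laid down in the egg or the sperm, most often at the promoter of a long noncoding RNA or of the imprinted gene itself, so that a CpG there is methylated on one parental copy only. Because TET enzymes oxidise 5-methylcytosine to 5-hydroxymethylcytosine (5hmC), 5hmC can form only where a CpG is methylated. The bodies of most genes in embryonic stem cells are methylated on both copies, whereas CpG-rich promoters that carry no imprint are usually free of methylation.

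The 38 imprinted genes described here were chosen by name, but with earlier results of these data known. All 38 were found among the 49993 genes of the RefSeq gene table of GRCm38.p6. Their spans, from gene start to gene end, covered 2491.69 kb on 9 autosomes. Genes within 2 Mb of each other were joined, which gave 16 clusters, 8 of them with a single gene. The spans held 2544 of the 1849087 CpG calls in the series (0.138%), from 1046 reads, each call counted once where spans overlap.

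The cells were a mouse embryonic stem cell line with TET1, TET2 and TET3 inactivated (TET-TKO), complemented by a PiggyBAC transposon that carries the catalytic domain of mouse TET3 under a doxycycline-inducible promoter, transcriptionally linked to mCherry. All cells grew in medium with 50 µg/ml ascorbate, and doxycycline was given at 1 µM. Untreated cells gave 3 libraries (0 h, A to C), cells treated for 6 h gave 2 (A and B), and cells treated for 12 h gave 3 (A to C). The construct is a catalytic domain supplied from a transposon to a single line without TET enzymes of its own, so that normal TET targeting was not measured, and nothing in the labels says whether replicates were separate cultures, so that p-values measure the spread between these libraries, which may be technical. 5hmC was read by APOBEC-coupled epigenetic sequencing (ACE-seq), in which glucosylated 5hmC resists enzymatic deamination while cytosine and 5-methylcytosine do not. An undeaminated call therefore stands for 5hmC plus the background of the assay, and neither methylation itself nor the parental copy was read. A level here is the percentage of CpG calls that are undeaminated. Libraries held 75023 to 485941 calls, and the member spans held 96 to 717 calls per library, so most genes rest on few reads. Intervals are 95% Wilson intervals and cover counting error only. Calls on one read are not independent, so these intervals are too narrow.

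The promoters of imprinted genes with a maternal germline methylation mark are the sites at which normally the maternal copy is methylated and the paternal copy is not. Those shown are the 6 with the most calls within 1 kb of an annotated start, among the 13 genes listed here under this role. Gnas, listed as tissue- or isoform-dependent, was left out, although 6 h B reads fell on its starts. Each is given as the 250 bases before the start, 5′ to 3′ in the direction of the gene, with CpGs in capitals (RefSeq, GRCm38.p6). The Mest promoter is chr6:30737803-30738052 on the + strand, Kcnq1ot1 is chr7:143296548-143296797 on the − strand, and Nap1l5 is chr6:58907127-58907376 on the − strand. Zrsr1 is chr11:22971755-22972004 on the + strand, Airn is chr17:12741061-12741310 on the + strand, and Peg3 is chr7:6730420-6730669 on the − strand. They hold 14, 5, 10, 8, 2 and 8 CpGs in that order.
Mest: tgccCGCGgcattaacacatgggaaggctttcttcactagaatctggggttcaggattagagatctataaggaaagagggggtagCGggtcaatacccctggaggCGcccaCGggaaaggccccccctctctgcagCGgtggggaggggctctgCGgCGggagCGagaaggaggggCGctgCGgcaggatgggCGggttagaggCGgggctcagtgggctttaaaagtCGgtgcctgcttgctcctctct
Kcnq1ot1: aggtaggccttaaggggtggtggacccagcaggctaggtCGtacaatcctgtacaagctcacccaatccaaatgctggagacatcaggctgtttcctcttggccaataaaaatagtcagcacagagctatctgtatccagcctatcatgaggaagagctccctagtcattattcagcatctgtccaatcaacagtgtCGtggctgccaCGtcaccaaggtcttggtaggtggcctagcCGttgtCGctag
Nap1l5: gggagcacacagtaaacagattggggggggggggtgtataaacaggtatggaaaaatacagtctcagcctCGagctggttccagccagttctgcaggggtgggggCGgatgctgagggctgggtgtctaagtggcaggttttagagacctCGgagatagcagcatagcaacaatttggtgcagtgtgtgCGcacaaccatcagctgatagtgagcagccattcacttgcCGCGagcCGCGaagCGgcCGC
Zrsr1: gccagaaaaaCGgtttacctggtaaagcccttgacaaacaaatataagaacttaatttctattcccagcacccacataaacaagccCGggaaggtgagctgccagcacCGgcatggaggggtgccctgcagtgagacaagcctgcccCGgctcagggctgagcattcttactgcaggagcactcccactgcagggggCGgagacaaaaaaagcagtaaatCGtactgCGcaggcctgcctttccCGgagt
Airn: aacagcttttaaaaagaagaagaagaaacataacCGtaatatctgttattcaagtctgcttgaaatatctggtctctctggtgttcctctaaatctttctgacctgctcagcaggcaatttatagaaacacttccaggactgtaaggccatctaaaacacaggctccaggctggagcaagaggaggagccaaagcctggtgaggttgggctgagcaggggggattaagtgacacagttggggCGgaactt
Peg3: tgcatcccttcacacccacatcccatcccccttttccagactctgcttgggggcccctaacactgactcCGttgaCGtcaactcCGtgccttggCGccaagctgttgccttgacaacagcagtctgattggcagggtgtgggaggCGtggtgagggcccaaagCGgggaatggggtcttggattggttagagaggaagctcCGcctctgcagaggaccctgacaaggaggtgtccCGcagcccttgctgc
No call of any library fell inside these stretches. The calls near them lay further up- or downstream, for Nap1l5 between 233 and 357 bases after the start and for Airn between 204 and 314 bases after it.

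Igf2r, the receptor that takes up and degrades insulin-like growth factor 2, and Ube3a, a ubiquitin ligase silenced on the paternal copy in neurons, start in CpG-rich promoters that carry no germline mark. They are shown because reads fell directly on them, a choice made after their values were seen. Capitals here mark only the CpGs that were called on at least 1 read, 10 in each stretch. Igf2r is chr17:12769707-12769956 on the − strand and Ube3a is chr7:59228500-59228749 on the + strand.
Igf2r: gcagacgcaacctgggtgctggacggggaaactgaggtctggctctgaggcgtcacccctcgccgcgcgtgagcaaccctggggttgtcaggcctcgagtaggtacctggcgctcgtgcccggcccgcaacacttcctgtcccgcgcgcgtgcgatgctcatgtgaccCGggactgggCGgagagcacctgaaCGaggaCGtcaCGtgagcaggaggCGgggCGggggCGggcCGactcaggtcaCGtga
Ube3a: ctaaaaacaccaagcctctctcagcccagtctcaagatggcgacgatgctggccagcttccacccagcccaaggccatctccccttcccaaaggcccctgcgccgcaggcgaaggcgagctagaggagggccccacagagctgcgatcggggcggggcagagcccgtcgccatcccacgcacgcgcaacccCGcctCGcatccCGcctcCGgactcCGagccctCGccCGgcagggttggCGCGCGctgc
A 12 h A read from 50 bases before to 34 bases after the Igf2r start was undeaminated at 0 of 14 CpGs. A 6 h B read there, from 81 bases before the start, was undeaminated at 1 of 17 CpGs. At Ube3a a 12 h B read from 59 bases before to 60 bases after the start was undeaminated at 0 of 18 CpGs, and a second read of that library, between 123 and 241 bases after the start, at 0 of 18. The 3 reads at 12 h thus held no undeaminated call.

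Inside the imprinted spans the undeaminated level was near background in untreated cells, higher after 6 h and much higher after 12 h. It was 1.84%, 1.04% and 0.787% in 0 h A, B and C, 5.97% and 8.04% in 6 h A and B, and 17.6%, 24.7% and 27.8% in 12 h A, B and C. The counts behind these values were 4 of 217, 1 of 96 and 1 of 127 calls at 0 h, 8 of 134 and 34 of 423 calls at 6 h, and 107 of 607, 177 of 717 and 62 of 223 calls at 12 h. The ranges of the 3 times did not overlap. The mean was 1.22% ± 0.551 (SD, n = 3) at 0 h, 7.004% ± 1.46 (SD, n = 2) at 6 h and 23.4% ± 5.21 (SD, n = 3) at 12 h. The gain over 0 h was 22.1 percentage points at 12 h and 5.78 at 6 h. No p is given for this pooled level, since the genes were chosen with results of these data known; with 3 libraries against 3 no permutation test could fall below 0.1.

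The level of the imprinted spans differed from that of the rest of the genome by less than the spread between libraries. The rest of the library averaged 1.13% ± 0.200 at 0 h, 6.42% ± 0.215 at 6 h and 24.1% ± 2.35 at 12 h (SD, n = 3, 2 and 3). The member level minus the level of the rest was -4.69, 1.37 and 1.00 percentage points in 12 h A, B and C, and 0.945, -0.189 and -0.469 in 0 h A, B and C. The mean difference was -0.772 ± 3.40 at 12 h (SD, n = 3), so that the change in this difference, 12 h against 0 h, was -0.868 points. Library 12 h A decided its sign: without it the change was 1.09 points.

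**Figure D1:**
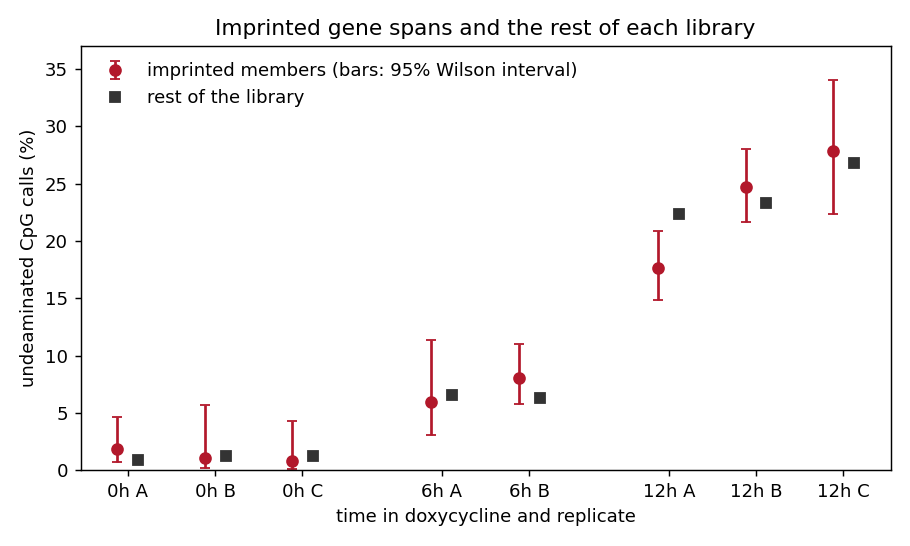
Percentage of undeaminated CpG calls inside the imprinted gene spans (red circles, bars give 95% Wilson intervals) and in the rest of the same library (black squares), for each library at 0, 6 and 12 h of doxycycline. The members lie between 0.787 and 1.84% at 0 h and between 17.6 and 27.8% at 12 h, and in 12 h A they lie below the rest of the library (17.6 and 22.3%).

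The few reads sampled from imprinted spans were denser in CpGs than the rest at 6 h and 12 h, but not at 0 h. Member reads of 8 to 10 CpGs numbered 3, 4 and 16 at 0, 6 and 12 h, and those of 11 or more 1, 8 and 11. Reads with at least 8 CpG calls gave 8.82% of the member calls and 11.9% of the other calls at 0 h, 25% and 13.5% at 6 h, and 18.3% and 11.3% at 12 h (means over libraries). The level at 12 h was lowest on the densest reads, in the members as in the rest of the libraries. On reads of 11 or more CpGs the members were undeaminated at 9 of 159 calls (5.66%), against 5.71% in the rest. The members had a higher level than the rest on reads of 8 to 10 CpGs (26 of 136 calls, 19.1%, against 17.3%), of 4 or 5 CpGs (26.7%, against 25.8%) and of 3 CpGs (58 of 207 calls, 28.0%, against 26.1%). They had a lower level than the rest on reads of 6 or 7 CpGs (22.1%, against 23.7%), of 2 CpGs (23.1%, against 25.4%) and of 1 CpG (23.6%, against 24.3%). Set against the rest of the library within classes of CpGs per read, the change in the difference, 12 h against 0 h, was -0.0549 points (SD 3.30 over the 12 h libraries). Of 347 member reads with at least 2 calls at 12 h, 179 had no undeaminated call, 153 were mixed and 15 were undeaminated throughout. The shares were 51.6%, 44.1% and 4.32% in the members, and 52.5%, 40.7% and 6.80% in the rest.

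Nnat, which encodes neuronatin, and Phlda2, a brake on placental growth, had no call in any library. Of the other 36 genes, 26 had calls at 0 h, 3 of them an undeaminated one, 32 had calls at 6 h, 15 of them an undeaminated one, and all had calls at 12 h, 33 of them an undeaminated one. The 3 genes without an undeaminated call at 12 h were H19, the maternally expressed noncoding RNA next to Igf2, with 0 of 6 calls on a single read, the placental transcription factor gene Ascl2 with 0 of 11 on a single read, and Zrsr1 with 0 of 17. The 6 undeaminated calls at 0 h lay on 5 reads, 4 of the calls in Trappc9 and 1 each in Kcnq1 and Slc22a3. Taking 3 calls as the limit, the counts of 0 at 12 h allow a level of up to 50.0% in H19, 27.3% in Ascl2 and 17.6% in Zrsr1.

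Cluster by cluster the 12 h level ran between 7.14% and 32.3%, and at 0 h between 0 and 3.45%. The 6 clusters with at least 100 calls at 12 h were those of Trappc9 and Peg13, of H19 to Phlda2, of Slc22a3 to Airn, of Ddc and Grb10, of Dlk1 to Mirg and of Ube3a to Magel2. Of these, 5 lay between 21.4 and 29.7%, and that of Ube3a to Magel2 at 12.0%. Several smaller clusters were lower, with wide intervals. Sgce and Peg10 had 11 of 65 (16.9%), Commd1 and Zrsr1 7 of 44 (15.9%), the zinc finger gene Peg3 3 of 21 (14.3%), the hydrolase gene Mest 1 of 13 (7.69%) and the histone chaperone relative Nap1l5 1 of 14 on a single read.

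**Figure D2:**
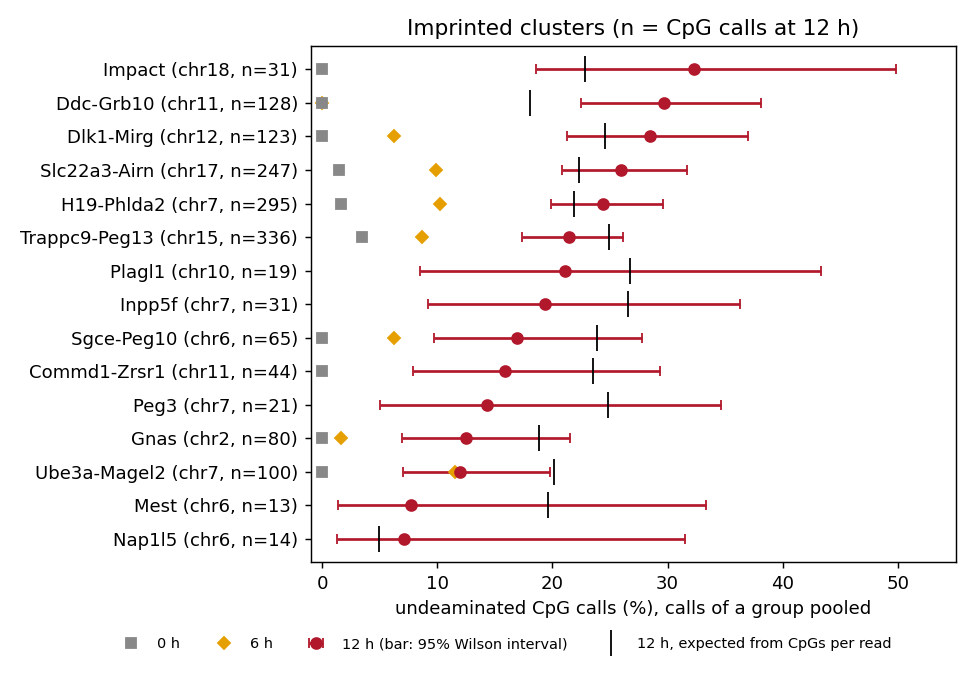
Percentage of undeaminated CpG calls in the 15 clusters with calls at 12 h, with the calls of a group pooled: 12 h as red circles with 95% Wilson intervals, 6 h as orange diamonds and 0 h as grey squares where at least 10 calls were made, and black ticks for the 12 h level of the rest of the library on reads with as many CpGs. The 12 h level runs up from 7.14% in Nap1l5 to 32.3% in Impact, and the intervals miss the tick only in Ddc-Grb10, which lies above it, and in Ube3a-Magel2, which lies below it.

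The Kcnq1 domain on chromosome 7, together with the neighbouring H19 and Igf2 domain, had the second most calls. In this cluster a noncoding RNA, Kcnq1ot1, is transcribed from inside Kcnq1 on the paternal copy and silences genes on both sides of it. Over the 9 genes from H19 to Phlda2, 1 of 60 calls was undeaminated at 0 h (1.67%), 10 of 98 were at 6 h (10.2%) and 72 of 295 were at 12 h (24.4%, 19.9 to 29.6%). Kcnq1, a potassium channel gene (chr7:143106877-143427050), was undeaminated at 13 of 71, 37 of 118 and 4 of 17 calls in 12 h A, B and C, against 0 of 24, 1 of 12 and 0 of 8 in 0 h A, B and C. All 3 libraries at 12 h lay above all 3 at 0 h. Such a rise was general: of the 346 genes with enough calls for a test, 98.8% gained at 12 h. Kcnq1 was not among those tested. Outside the Kcnq1ot1 span, Kcnq1 was undeaminated at 48 of 177 calls at 12 h (27.1%, 21.1 to 34.1%), and the Kcnq1ot1 span at 6 of 29 (20.7%, 9.85 to 38.4%); the intervals overlap widely. At 6 h the same stretches had 9 of 64 and 0 of 4. Slc22a18, a maternally expressed transporter gene at the far end of the domain, was undeaminated at 10 of 23 calls on 9 reads at 12 h, against 0 of 7 at 0 h. Cdkn1c, which encodes a cyclin-dependent kinase inhibitor, rested on a single 12 h A read with 1 of 14. Igf2, the paternally expressed growth factor gene, had 4 of 22 at 12 h on 3 reads, and the whole stretch between H19 and Igf2 had 12 of 56 (21.4%). The paternally methylated imprinting control region lies in this stretch. Its limits were not available, so calls inside it could not be counted.

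The Igf2r domain on chromosome 17 is controlled by Airn, a noncoding RNA that starts inside Igf2r, runs against it and silences it on the paternal copy. Over Slc22a3, Slc22a2, Igf2r and Airn the undeaminated share was 1 of 69 calls at 0 h (1.45%), 11 of 111 calls at 6 h (9.91%) and 64 of 247 calls at 12 h (25.9%, 20.8 to 31.7%). Igf2r (chr17:12682406-12769706) was undeaminated at 7 of 38, 19 of 63 and 2 of 11 calls in 12 h A, B and C, against 0 of 19, 0 of 9 and 0 of 3 at 0 h. Airn (chr17:12741311-12859884) was undeaminated at 13 of 50, 6 of 28 and 2 of 5 calls in 12 h A, B and C, against 0 of 17, 0 of 12 and 0 of 6 at 0 h. The stretch of Igf2r outside Airn, the overlap and the stretch of Airn outside Igf2r had nearly the same pooled level at 12 h: 21 of 84 (25%), 7 of 28 (25%) and 14 of 55 (25.5%). The pooled value hides a split among libraries in the first stretch, with 0 of 15 calls in 12 h A and 19 of 58 in 12 h B. In the overlap 12 h A had 7 of 23 and 12 h B 0 of 5, and 5 of those 7 lay on 1 read of 9 calls. Slc22a3, an organic cation transporter gene silenced by Airn in the placenta, had 18 of 69 (26.1%) at 12 h and 1 of 16 at 0 h.

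**Figure D3:**
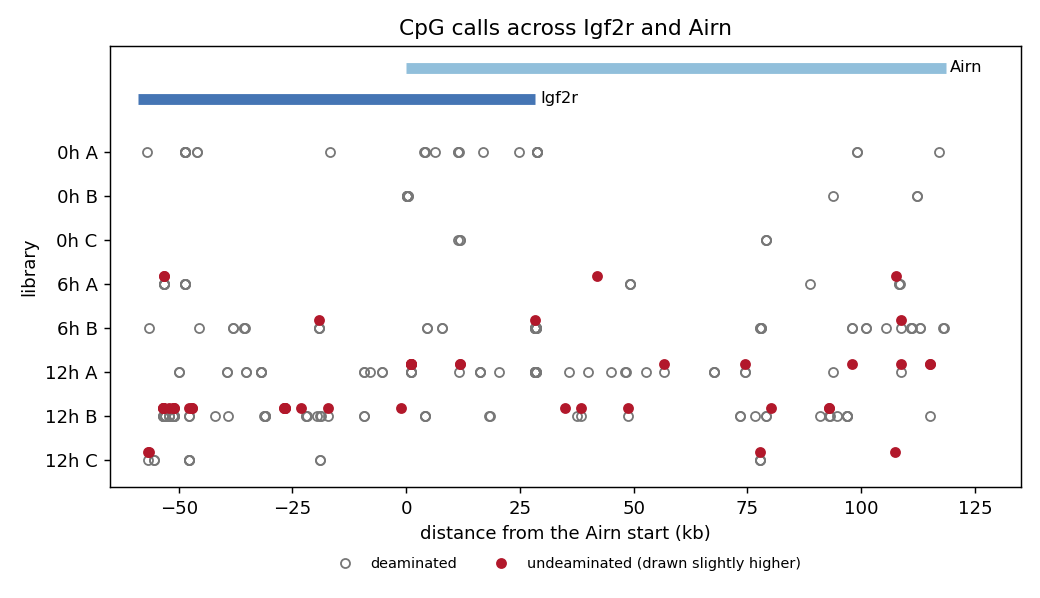
CpG calls across Igf2r and Airn by distance from the Airn start in kb, with 1 row per library from 0 h to 12 h; open circles are deaminated and red circles undeaminated calls, and the bars above show the gene spans, Airn above Igf2r. Undeaminated calls are absent from the 3 libraries at 0 h and spread over both spans at 12 h, with the call-dense Igf2r start, 28.4 kb after the Airn start, showing none at 12 h.

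The Dlk1-Meg3 domain on chromosome 12 has paternally expressed protein genes, Dlk1 and Rtl1, and maternally expressed noncoding RNAs, Meg3, Rian and Mirg. Its 5 genes were undeaminated at 0 of 33 calls at 0 h, at 3 of 48 calls at 6 h (6.25%) and at 35 of 123 calls at 12 h (28.5%, 21.2 to 37.0%). Rtl1, a retrotransposon-derived gene needed in the placenta, had 3 of 15, 7 of 20 and 6 of 11 calls in 12 h A, B and C, against 0 of 2 and 0 of 13 in 0 h A and C. On a 12 h C read 6 of 8 calls in Rtl1 were undeaminated. Meg3 had 2 of 17, 6 of 13 and 1 of 4 calls in 12 h A, B and C, and no call at 0 h. Over the whole stretch between Dlk1 and Meg3, 29 of 89 calls were undeaminated at 12 h (32.6%, 23.7 to 42.9%), against 0 of 24 at 0 h. The paternally methylated control region of the domain lies in this stretch. Its limits were not available, so calls inside it could not be counted.

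The neighbours Ddc and Grb10 on chromosome 11 lay furthest above the level expected from their CpGs per read. Ddc encodes the decarboxylase that makes dopamine and serotonin, and Grb10 an adaptor that restrains growth. Over both genes 0 of 37 calls were undeaminated at 0 h, 0 of 36 calls at 6 h and 38 of 128 calls at 12 h (29.7%, 22.5 to 38.1%), where the rest of the library on reads as rich in CpGs would give 18.1%. Ddc (chr11:11814101-11898144) was undeaminated at 8 of 19, 7 of 10 and 3 of 7 calls in 12 h A, B and C, against 0 of 5, 0 of 7 and 0 of 1 at 0 h. All 7 in 12 h B lay on a single read that was undeaminated at every CpG. At 50.0% (18 of 36), Ddc lay above 99.5% of the 7080 other genes with at least 30 calls at 12 h. Grb10 had 6 of 24, 11 of 64 and 3 of 4 calls in 12 h A, B and C, against 0 of 24 over the 0 h libraries. Near the Grb10 start, which has 45 CpGs in the 300 bases around it, overlapping reads of 12 h B had 0 of 20 and 0 of 22 undeaminated, between 522 and 721 bases after the start.

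Trappc9, which encodes a subunit of a membrane trafficking complex and contains the paternally expressed noncoding gene Peg13, is the longest member and the only one with at least 10 calls in every library. Trappc9 (chr15:72589620-73061238) was undeaminated at 3 of 51, 0 of 29 and 1 of 36 calls in 0 h A, B and C, at 1 of 17 and 8 of 87 in 6 h A and B, and at 25 of 139, 35 of 146 and 12 of 51 in 12 h A, B and C. All 12 h libraries lay above the others. In the fit over the 346 genes that reached 10 calls in each library (limma, Benjamini-Hochberg), Trappc9 gained 17.6 ± 2.90 points (SE) at 12 h against 0 h, with adjusted p = 0.000141, as did 98.8% of the genes tested. The rise of a whole library enters the gain of each of its genes and windows, and the fit treats them as independent, so that p-values of gains are likely understated. Relative to the gain of the library Trappc9 differed by -4.74 ± 2.91 points (SE), which did not pass the test (limma adjusted p = 0.509). Of the 346 genes, 0.578% were called above and 1.45% below the gain of the library. At 6 h against 0 h the gain of Trappc9 was 4.88 ± 2.98 points (limma adjusted p = 0.268), where 6.36% of the genes were called. At 12 h against 6 h it was 12.7 ± 3.85 points (limma adjusted p = 0.0101), where 91.6% of the genes were called, and 0.289% of the genes fell behind the library over that time, Trappc9 not among them.

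Clusters with lower pooled levels at 12 h were those of Gnas on chromosome 2 and of the Prader-Willi and Angelman region on chromosome 7. Gnas, a locus with maternal, paternal and biallelic products that encodes the stimulatory G protein α subunit, had 0 of 15 calls undeaminated at 0 h, 1 of 62 calls at 6 h, and 5 of 58, 5 of 19 and 0 of 3 calls in 12 h A, B and C. At 12.5% (10 of 80, 6.93 to 21.5%) it lay under the 18.8% expected from its CpGs per read, within the interval. Of the reads within 1 kb of the Gnas starts at 6 h, a 6 h A read had 0 of 23 calls undeaminated, and 6 h B reads had 0 of 18, 1 of 12 and, upstream of a further start, 1 of 5. Over Ube3a, Snrpn, Ndn and Magel2 the undeaminated share was 0 of 46 calls at 0 h and 6 of 52 calls at 6 h (11.5%). At 12 h it was 12 of 100 calls (12.0%, 6.999 to 19.8%), where 20.1% would be expected. By library it was 7 of 30, 4 of 54 and 1 of 16 calls in 12 h A, B and C. The share in 12 h A was thus not below the rest of that library (22.3%). Snrpn, which encodes a splicing protein and spans 467.683 kb in the RefSeq table, was undeaminated at 4 of 25, 2 of 20 and 1 of 10 calls in 12 h A, B and C. Ube3a was at 1 of 31 (3.23%) at 12 h, but its promoter reads in 12 h B made up most of these calls. The Gnas interval reaches the expected level and that of Ube3a to Magel2 stops just short of it, and neither locus had the calls for the test across genes.

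Among the remaining genes with at least 30 calls at 12 h, Sgce, the paternally expressed ε-sarcoglycan gene, had 9 of 40 (22.5%), and Inpp5f, which encodes an inositol phosphatase, had 6 of 31 (19.4%). Commd1, a copper homeostasis gene that holds Zrsr1 in an intron, had 7 of 44 (15.9%), and all 7 lay outside Zrsr1, where there were 27 calls. Impact, a translational regulator gene on chromosome 18, had 10 of 31 (32.3%). Over the 16 genes the median level was 23.8%, against 23.4% over the 7080 other genes with as many calls. Of the 16 genes 1 was under 5% (6.25%), as were 3.42% of the other genes, and 3 were over 30% (18.8%), as were 20.9% of the others.

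Grouped by role, the genes gave overlapping levels at 12 h. The 13 genes with a maternally methylated germline start averaged 19.2% ± 1.89, from 68 of 357 calls, and the 15 paternally expressed protein genes, many of them the same, averaged 19.8% ± 0.474, from 65 of 328. The 11 maternally expressed protein genes averaged 27.2% ± 11.2, from 139 of 582, and the 7 noncoding RNAs averaged 28.5% ± 11.3, from 46 of 195 (SD, n = 3 libraries each). The ranges over the 3 libraries overlapped between these roles. A further 29 imprinted genes outside the list had 329 of 1425 calls undeaminated (22.1% ± 3.93). In 11 genes whose products set or maintain imprints, such as Dnmt3a, Zfp57, Trim28 and Dnmt1, 103 of 400 were undeaminated (25.8% ± 1.84). The genes with a germline mark had 0 of 137 undeaminated at 0 h, which allows a level of up to 2.19%, and 10 of 129 at 6 h (7.75%).

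The surroundings of the clusters were tested across the genome on 1 Mb windows that reached 20 calls in each library. Of the 21 windows that hold a member, 13 were among the 1202 tested. Most of their calls lay outside the imprinted spans: 1028 of the 8462 calls at 12 h (12.1%) fell inside them, from 0 of 918 in the window of Nnat and 13 of 730 in that of Mest up to 256 of 679 in that from Tssc4 to Phlda2 (37.7%). These windows therefore measure chiefly the sequence around the imprinted genes, and apart from Trappc9 no member span was itself tested. All 13 gained at 12 h against 0 h, by 20.0 to 27.7 points (limma adjusted p at most 5.98e-06), as did 99.9% of all windows. At 6 h against 0 h 6 of the 13 gained, against 47.9% of all windows; the estimates ran from 0.958 points for Dlk1 to Mirg up to 9.78 for Sgce and Peg10. At 12 h against 6 h all 13 gained, as did 98.9% of all windows. None of the 13 windows passed the test of a difference from the gain of the library at 12 h (limma adjusted p at least 0.329), where 0.0832% of all windows were called above and 0.0832% below. Before adjustment 141 of the 1202 windows had a limma p under 0.05, among them 1 of the 13, the window from Tssc4 to Phlda2. That window, which holds Kcnq1, gained 5.18 ± 1.90 points (SE) more than the library, with a limma adjusted p = 0.329. Its level was 25.6%, 29.97% and 28.8% in 12 h A, B and C, against 0%, 1.96% and 0% in 0 h A, B and C. The lowest, that of Inpp5f, differed by -2.45 ± 2.00 points. The median over the 13 was 0.792 points, against 0.386 over all windows.

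**Figure D4:**
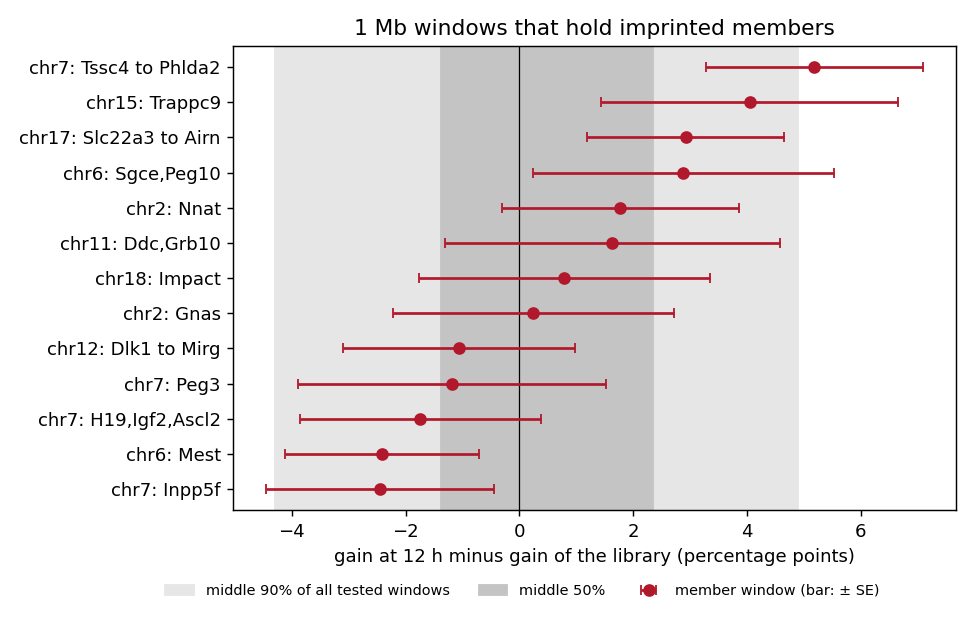
Gain at 12 h against 0 h relative to the gain of the library, in percentage points, for the 13 tested windows of 1 Mb that hold imprinted genes (red circles, bars give ± SE of the limma fit); 12.1% of their calls at 12 h lie inside the imprinted spans. Grey bands hold the middle 50% and 90% of the 1202 windows tested; 12 of the 13 lie inside the wider band, and the window from Tssc4 to Phlda2, at 5.18 points, lies outside it.

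Within 1 kb of a gene end the imprinted genes had lower levels than in the body, and other genes did too. At the ends 25 of 252 calls were undeaminated at 12 h, with 10.6%, 8.76% and 14.3% in A, B and C, a mean of 11.2% ± 2.81 (SD, n = 3). In the body 326 of 1337 calls were undeaminated, a mean of 25.1% ± 5.36. The ends were lower than the body in all 3 libraries, and the gain at 12 h against 0 h was 15.5 points smaller at the ends. The 0 h mean at the ends, 2.78%, rested on 1 of 12 calls in 0 h C. Without that library the gain at ends minus that in the body was -12.2 points. Other protein-coding genes averaged 12.1% ± 1.60 at the ends and 26.6% ± 2.40 in the body. Calls at the ends came largely from reads dense in CpGs: 67.9% of the member calls at ends lay on reads of at least 8 CpGs, against 10.3% in the body, and for other genes these shares were 51.7% and 7.35%. On such reads the members had 6 of 171 calls undeaminated at ends (3.51%, 1.62 to 7.44%) and 29 of 138 in the body (21.0%, 15.05 to 28.6%). On reads of 1 to 3 CpGs the members had 7 of 25 at ends (28.0%, 14.3 to 47.6%) and 197 of 806 in the body (24.4%), with no gap visible at this depth. On reads of 4 to 7 CpGs the members had 12 of 56 at ends (21.4%, 12.7 to 33.8%) and 100 of 393 in the body (25.4%, 21.4 to 29.97%), with overlapping intervals. Other genes had 23.5% at ends and 26.5% in the body on reads of 1 to 3 CpGs. They had 15.5% and 27.1% on reads of 4 to 7 CpGs, and 4.25% and 16.0% on reads of at least 8.

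**Figure D5:**
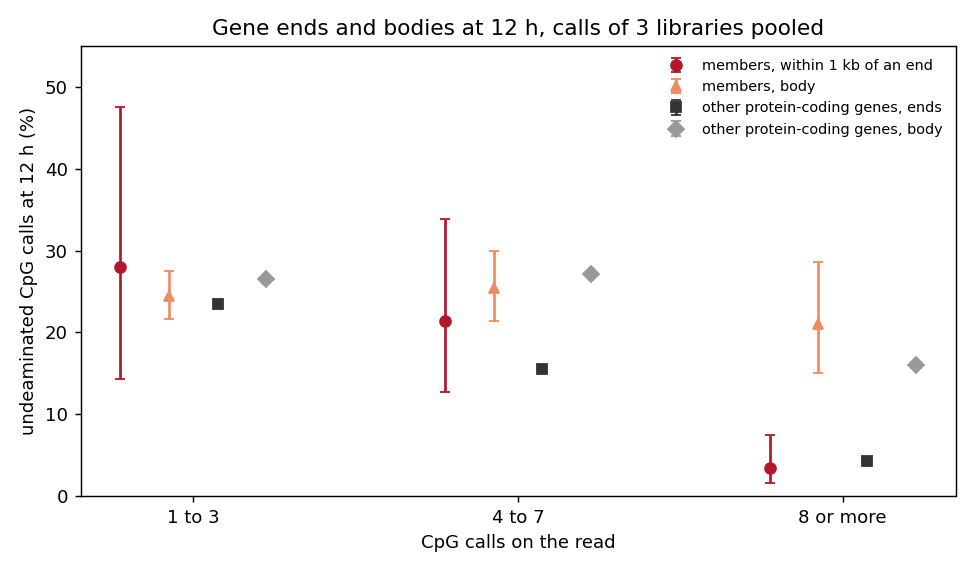
Percentage of undeaminated CpG calls at 12 h, calls of 3 libraries pooled with 95% Wilson intervals, by the number of CpG calls on the read, for the ends (within 1 kb) and the body of imprinted genes and of other protein-coding genes. On reads of 8 or more CpGs the ends fall to 3.51% in the members and 4.25% in other genes, while the member bodies stay at 21.0%.

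Where the direction of the gene is annotated, starts could be told from other ends. Within 1 kb of the 44 annotated starts of 29 members, the undeaminated share was 0 of 58 calls at 0 h, 5 of 153 calls at 6 h (3.27%) and 15 of 212 calls at 12 h (7.08%, 4.33 to 11.3%). At starts with at least 10 CpGs in the 300 bases around them the members had 11 of 189 (5.82%) at 12 h, against 5.84% at such starts of other genes. At member starts with fewer CpGs the level was 4 of 23 (17.4%), against 23.0% for other genes. The 14 annotated starts of 9 genes with a maternal germline mark, partly shown above, had 0 of 32 calls undeaminated at 0 h. They had 0 of 14 at 6 h and 1 of 33 at 12 h (3.03%, 0.537 to 15.3%). These starts were taken by gene, alternative starts included, and whether each carries the mark was not known. At 0 h 7 of the calls lay on a read near the upstream Mest start. The 33 calls at 12 h lay on 4 reads: 1 of 14 at Nap1l5 and 0 of 5 at Plagl1 in 12 h A, and 0 of 10 at Zrsr1 and 0 of 4 at Kcnq1ot1 in 12 h B. Just past the 1 kb limit, between 1.013 and 1.088 kb after the Airn start, a 12 h A read had 5 of 9 undeaminated. Sgce, Peg10, Peg13 and Impact, also listed with a germline mark, had no start in this set, and Gnas was listed under another role. These few reads thus do not cover all germline-marked starts. The parental origin of the reads was not measured. A 12 h B read at the Meg3 start had 3 of 4 calls undeaminated, between 32 and 80 bases after the start, and a 12 h B read at Tssc4 had 3 of 6, between 737 and 853 bases after the start. Single calls near the starts of Ddc, Slc22a2 and Ndn were undeaminated as well. Long deaminated reads also lay after the start of Ascl2, with 0 of 11 in 12 h B and 0 of 17 in 6 h B, and of Slc22a3, with 1 of 12 in 12 h A and 0 of 18 in 6 h B.

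The letters TGCCGC, the core bound by the zinc finger protein ZFP57 when its CpG is methylated, were searched on both strands (the reverse reads GCGGCA) in the 300 bases from 250 before to 50 after each start. They were present at 11 of the 44 member starts (25%), against 11.6% of 32851 starts in the table. Among the 14 starts of genes with a germline mark 6 had them, in Mest, Nap1l5, Nnat, Plagl1 and Snrpn. Overlapping starts of Mest were counted apart. By gene, 5 of these 9 genes and 10 of the 29 members with annotated starts had them. Member starts had a median of 12 CpGs in this window and all starts a median of 7, and the part of CpG number in the 25% was not tested. A match is a description of the sequence only.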

How the data were processed

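ACE-seq calls of 8 libraries of mouse embryonic stem cells were used. The input was 10 ng of DNA, broken to fragments of about 300 bp, per the labels' protocols, and sequencing took 3 runs with 150 bp reads. The files deposited by the authors were written by Bismark's methylation extractor (0.22.3, per the file headers), and their unit is a call letter, undeaminated or deaminated, for each CpG and read. The submitters' processing notes also name Trim Galore and GRCm38. For trimming, alignment settings and removal of duplicates, details were not given in the sources used here.

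Groups and replicate letters came from the sample titles. Gene spans came from the RefSeq table of GRCm38.p6, which gives no strand, and starts with strand and sequence from the RefSeq promoter table. All 98 calls inside the member windows of that table lay on a CpG of its sequence. The level expected from CpGs per read took the rest of the library in classes of 1, 2, 3, 4-5, 6-7, 8-10 and 11 or more CpG calls per read. Depth was 75023 to 485941 calls per library. Intervals are Wilson intervals.

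Regions were fitted with limma 3.58.1 in R 4.3.3 on the level in percent minus the library level, with 1 factor of 3 groups over all 8 libraries, weights from the number of calls over the binomial variance, moderated variances and Benjamini-Hochberg adjustment within 346 genes or 1202 windows, at a threshold of 0.05. Gains come from the same fit without subtraction. The fit was tested on simulated counts with binomial error only. It recovered 20.6% of deviations of 5 points among genes and 53.0% among windows. At 10 points it recovered 66.7% and 98.5%. Calls on a read were drawn as independent, and only 246 of the 346 genes and 1002 of the 1202 windows were left unchanged. Recovery in the real data is therefore likely lower. Deviations near 5 points, and among genes also of 10 points, could thus be missed. Members, lists and tests were chosen with earlier results of these data known. Members with at least 30 calls at 12 h were named, at most 20, with those in the tested family; other members are named where a count of few needed it. Alternatives were leaving out each library, 1 call per read, repeated reads kept once, each sequencing run alone, other minima and end widths, wider spans, no high-copy windows (which held 0 member calls), equal member weights, a replicate block, a logit scale, no weights, a quasi-binomial test and other centring. Leaving out the member with most calls and reads of 8 or more CpGs was added after seeing the data.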

Additional observations from a re-analysis of the deposited data

How the results depend on the processing

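The pooled gain of the imprinted genes at 12 h kept its direction in all 16 alternatives, and so did the gain at 6 h in all 15, although with 1 call per read it was 9.65 points in place of 5.78. The change of the pooled level relative to the library, 12 h against 0 h, ran from -2.37 points with sequencing run 1 alone to 1.09 without 12 h A, and changed sign also in run 3 alone (0.191) and without Trappc9, the member with the most calls (0.106). The gain at ends minus that in the body, -15.5 points, was -24.5 in run 3 alone and -9.585 within 2 kb of an end; the cause was not tested, and runs 1 and 2 gave no value because a library had no call in one of the parts. Trappc9 and the 13 windows passed no test of deviation under any alternative that could be computed. Over all genes the count deviating at 12 h was 7 and ranged between 1 and 8 when a library was left out, the 1 being without 12 h B. It was 1 with 1 call per read, 11 with at least 5 calls, 4 with no weights, 3 with the level expected from CpGs per read subtracted, and 0 on the logit scale and 0 by the quasi-binomial test, where 4 and 15 genes had an unadjusted p under 0.05. Over all windows the count was 2 and ranged between 1 and 4 when a library was left out. It was 1 with 1 call per read, 1 with at least 10 calls, 1 on the logit scale, 1 with no weights, 1 with the median of regions subtracted, and 0 with the level expected from CpGs per read and 0 by the quasi-binomial test, where 105 and 32 had an unadjusted p under 0.05. Correlations of same-letter deviations over 1202 windows ran from 0.0000715 to 0.0652, and those of other pairs from -0.0652 to 0.0411. Windows of few calls carry much counting error, so these values cannot decide whether replicate letters pair the libraries. With the replicate block 17 windows deviated, none of the 13 among them, and the pooled gain was 22.1 points at 12 h and 5.56 at 6 h. Depth limits what can be said of single genes, and 2 had no call at all.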
